A study of Mus musculus with 8 samples.

Results

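The 48 genes described here carry Wnt signals across the cell surface and into the nucleus, and they were picked out by gene symbol from 24421 genes in the count tables. All Wnt, Fzd, Sfrp1 to Sfrp5 and Dkk1 to Dkk4 symbols in the tables were taken. Lrp5, Lrp6, Axin1, Axin2, Lef1, Tcf7, Tcf7l1, Rnf43, Znrf3, Ctnnb1 and Apc completed the set. By role they were 19 ligands, 10 frizzled receptors, 2 LRP co-receptors, 8 secreted antagonists, 4 genes of β-catenin and its destruction complex, 3 TCF/LEF transcription factors and 2 ubiquitin ligases. RNA came from whole hippocampus of wildtype C57BL/6J mice labelled male. In the IUGR groups, named for intrauterine growth retardation, the dams had received dexamethasone, a synthetic glucocorticoid, by intraperitoneal injection at 1 mg/kg per day for 5 days from 14.5 days post coitum. In the NS groups the dams had received the same volume of normal saline. Offspring were sampled at week 8 and at postnatal day 3, with 2 libraries in each of the 4 groups, so n = 2 per group throughout.

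Wnt proteins are secreted, lipid-modified ligands that bridge a frizzled receptor and an LRP co-receptor. Binding stalls the cytoplasmic complex of APC and axin that otherwise marks β-catenin for destruction, and β-catenin then works with TCF/LEF factors on DNA. In the forming hippocampus, Wnt ligands from the cortical hem are required for growth of the hippocampal field, and in the adult dentate gyrus Wnt signals act on neural stem cells and new neurons.

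Total counts ran from 13030277 to 18993050 per library, and levels are given as CPM, the count scaled by the total of its library. A count of 0 allows up to 3 counts, or 0.158 to 0.23 CPM depending on the library, and this covers counting error only. The 18 hippocampal neuron markers all had counts, and Prox1, a granule neuron factor, was detected in every library at 10.8 to 66.6 CPM. Against their male label, replicate 2 of IUGR and of NS at postnatal day 3 held 283 and 285 CPM of Xist, which the other 6 libraries held at 0.0686 to 4.59 CPM. Both also held 1.87 and 0.571 CPM of the Y-linked Ddx3y, against 59.3 to 155 CPM in the others. At week 8, replicate 2 of both groups held at most 0.137 CPM of the non-coding Rpph1, against at least 49120 CPM in every other library. The sum of the hippocampal neuron markers was 918 and 2024 CPM in IUGR and 1121 and 2211 CPM in NS at week 8 (replicates 1 and 2), so that both replicate 2 libraries were high. Of this list, Zbtb20 and Spink8 were lower in replicate 2 of both groups, and Neurod6 and Calb1 in that of NS. Zbtb20 had 45.85 and 15.77 CPM in IUGR and 72.29 and 18.59 CPM in NS. Spink8 had 29.96 and 25.02 CPM in IUGR and 51.5 and 18.95 CPM in NS. The other genes of the list were higher in replicate 2 of both groups. The sum of the list was 1010.0 and 847 CPM in IUGR and 943 and 913 CPM in NS at postnatal day 3. The labels do not say that replicates came from separate litters, so p-values measure only the spread between these libraries, which may be technical.

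Members covered a wide span of levels. Levels between genes were compared only per kilobase of the deposited gene length (CPM per kb). β-Catenin itself, Ctnnb1, headed the whole set at 180.0 CPM per kb in the mean of the 4 week 8 libraries and 278 at postnatal day 3. Apc, the scaffold of the destruction complex, followed within its role at 30.6 and 74.2 CPM per kb. Among ligands, Wnt7b stood first at both ages, at 11.4 CPM per kb at week 8 and 9.41 at postnatal day 3. Its libraries spread widely at week 8, with 34.1 and 67.7 CPM in IUGR and 25.1 and 73.6 CPM in NS. The co-receptor Lrp6 stood above Lrp5, at 9.72 against 2.16 CPM per kb at week 8 and 11.4 against 2.00 at postnatal day 3. Fzd3, a receptor needed for axon tract formation in mice, led the frizzled genes at 12.6 CPM per kb at week 8 and 23.1 at postnatal day 3. Dkk3, a divergent member of the Dickkopf family placed among the antagonists by its symbol, led that group at 92.4 and 18.3 CPM per kb. Znrf3, which removes frizzled receptors from the membrane, led the ligases at 2.02 and 1.79 CPM per kb. Of the 7 roles the TCF/LEF factors had the lowest leading level, with Tcf7l1 first at week 8 (0.671 CPM per kb) and Lef1 first at postnatal day 3 (1.29 CPM per kb).

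**Figure D1:**
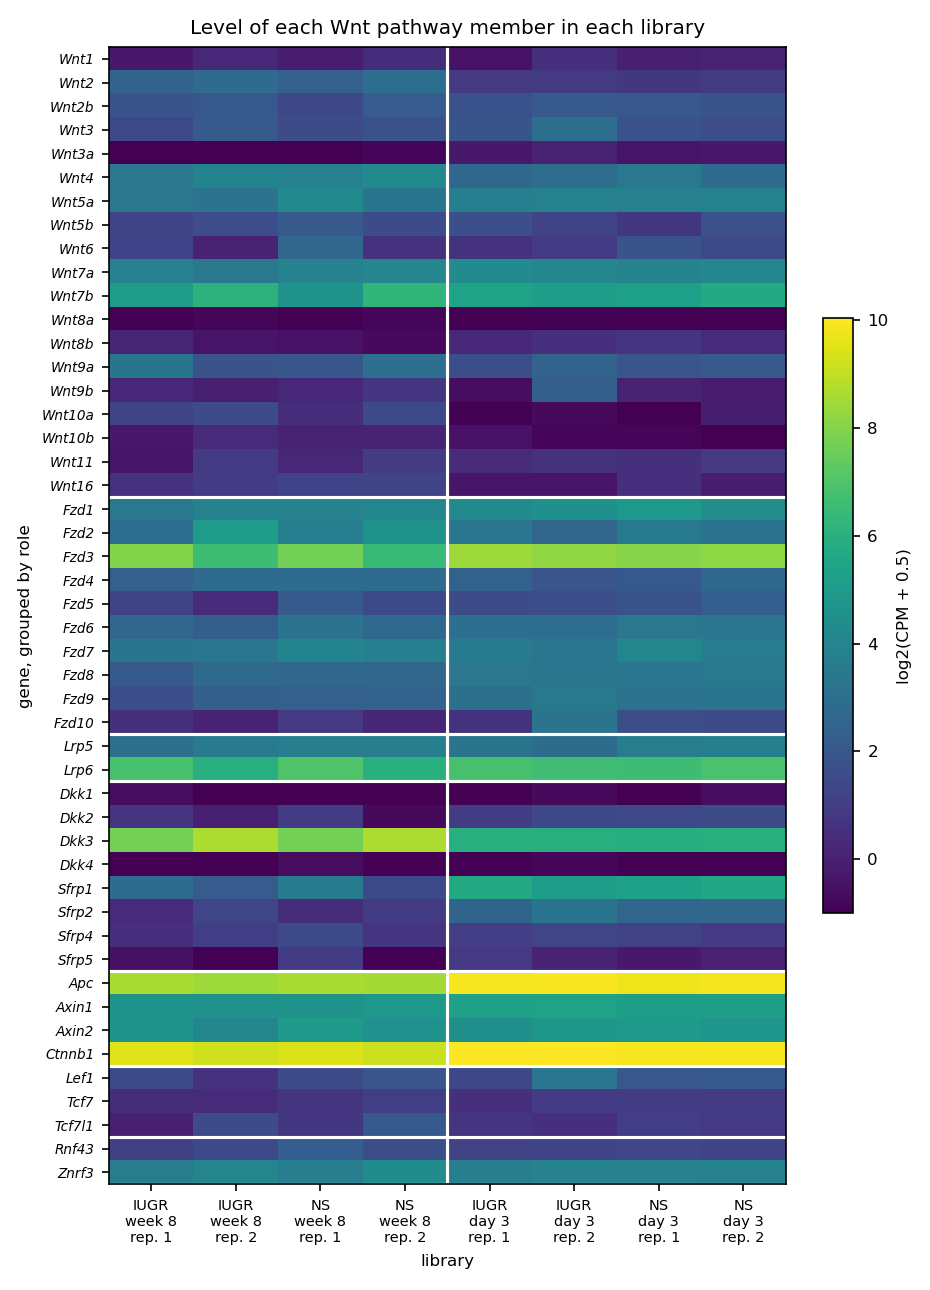
Level of each of the 48 members (rows, grouped by role) in each of the 8 libraries (columns), as log2(CPM + 0.5) in colour. Ctnnb1, Apc, Fzd3, Lrp6 and Dkk3 are bright in all libraries, Dkk3 is brighter and Sfrp1 and Apc are darker at week 8, and Wnt9b, Lef1, Wnt3 and Fzd10 stand out in replicate 2 of IUGR at postnatal day 3.

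No member lacked counts in all libraries, but 5 fell short of edgeR's expression filter, which left 43 members among 15999 genes tested. Dkk1, Dkk4 and Wnt8a had 7, 3 and 2 counts over all 8 libraries. Wnt3a, a ligand of the cortical hem, had 0, 0, 0 and 1 counts in the week 8 libraries and 4 to 10 counts in each postnatal day 3 library. Wnt10b showed the other distribution, with 33 counts at week 8 and 6 at postnatal day 3. These 5 members were not tested.

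Promoter sequences are shown for 2 members that differed between ages, for Lef1, of whose windows 1 holds motifs of its own protein family, and for the neighbours Wnt9b and Wnt3, which were high together in 1 library described further on. They come from the RefSeq table for GRCm38.p6, in which 31 of the 48 members were found, and each runs 5′ to 3′ on the strand of its gene, from the bases before a transcription start. Only bases outside exons are given, and capitals mark CTTTGA or CTTTGT on either strand, both cores of the TCF/LEF motif.

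Sfrp2: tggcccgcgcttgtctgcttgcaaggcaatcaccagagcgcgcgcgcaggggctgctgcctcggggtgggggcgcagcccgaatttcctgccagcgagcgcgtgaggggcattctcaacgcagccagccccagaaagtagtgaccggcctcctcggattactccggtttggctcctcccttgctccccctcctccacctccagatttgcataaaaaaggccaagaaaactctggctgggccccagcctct
Wnt2: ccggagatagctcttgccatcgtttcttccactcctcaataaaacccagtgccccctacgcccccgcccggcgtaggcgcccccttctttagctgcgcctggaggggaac
Lef1: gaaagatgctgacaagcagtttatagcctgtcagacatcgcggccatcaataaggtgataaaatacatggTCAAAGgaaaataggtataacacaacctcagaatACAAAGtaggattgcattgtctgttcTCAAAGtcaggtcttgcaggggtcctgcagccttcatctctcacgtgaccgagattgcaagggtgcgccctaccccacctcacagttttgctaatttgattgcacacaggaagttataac
Wnt9b: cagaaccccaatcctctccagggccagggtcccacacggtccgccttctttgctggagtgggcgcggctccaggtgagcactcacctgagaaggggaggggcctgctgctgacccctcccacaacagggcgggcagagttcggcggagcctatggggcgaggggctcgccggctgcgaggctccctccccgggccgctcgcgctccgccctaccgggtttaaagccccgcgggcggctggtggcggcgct
Wnt3: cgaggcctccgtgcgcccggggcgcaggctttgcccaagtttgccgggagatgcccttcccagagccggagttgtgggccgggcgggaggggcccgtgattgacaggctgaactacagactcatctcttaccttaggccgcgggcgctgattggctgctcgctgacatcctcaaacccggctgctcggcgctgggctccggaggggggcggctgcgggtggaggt

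The Sfrp2 stretch lies at chr3:83766071-83766320 (+) and the Wnt2 stretch at chr6:18030586-18030695 (-). The Lef1 stretch, at chr3:131156044-131156293 (+), precedes an internal start of the gene and holds TCAAAG at 2 places and ACAAAG at 1. It is 1 of 4 Lef1 windows in the table, and the other 3 hold neither motif. The Wnt9b stretch at chr11:103749822-103750071 (-) and the Wnt3 stretch at chr11:103773925-103774149 (+) hold neither motif. Within the 250 bases before a start, CTTTGA was found in 13.8% of 32851 RefSeq promoters and in windows of 5 members (Dkk1, Fzd1, Lef1, Wnt11 and Wnt5b). CTTTGT was found in 16.5% of the same promoters and in windows of 7 members (Dkk1, Dkk2, Fzd1, Fzd7, Lef1, Tcf7l1 and Wnt8b). GC made up 63.6% of the Sfrp2 stretch, 62.7% of the Wnt2 stretch, 72.0% of the Wnt9b stretch, 68.9% of the Wnt3 stretch and 44.8% of the Lef1 stretch, against a median of 52.4% over all RefSeq promoters. A match describes the letters in the window only.

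The first comparison asked how the members differed between week 8 and postnatal day 3. Dkk3 and the ligand Wnt2 rose, the destruction complex scaffold Apc and the antagonist Sfrp2 fell in both IUGR and NS, and Sfrp1 fell in IUGR. With edgeR's quasi-likelihood test and an adjusted p under 0.05 over all genes, 5 of 43 members passed in IUGR, or 11.6%, where 16.8% of all genes tested passed. In NS 4 members passed, or 9.3%, against 14.1% of all genes. Of those in IUGR 2 were higher, with 9.34% of all genes, and 3 lower, with 7.48%. In NS 2 were higher, with 7.7% of all genes, and 2 lower, with 6.44%. With 43 members tested, these shares lay near those of all genes. With no count filter the NS share was 10.4%, against 10.1% of all genes. The median log2 fold change of the 43 members was -0.37 in IUGR and 0.01 in NS, against 0.02 and 0.04 over all genes. The IUGR and NS age comparisons share no library, and 81.4% of the members had the same sign in both, against 88.8% of all genes. RNA was taken in bulk, so fewer cells of a type and less RNA per cell cannot be told apart in any of these values.

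In the secreted antagonist group 1 member rose and 2 fell in IUGR, and 1 rose and 1 fell in NS, of 6 tested. Of all genes 16.8% passed in IUGR and 14.1% in NS. Dkk3 (chr7:112116017-112159057) had 210.3 and 405 CPM in IUGR and 212 and 413 CPM in NS at week 8, against 62.7 and 62.7 CPM in IUGR and 59.0 and 61.8 CPM in NS at postnatal day 3. The ages did not overlap, and at week 8 replicate 2 was high in both groups. So was the hippocampal neuron marker sum, though not every gene of its list, and its part in the result was not tested. In edgeR the log2 fold change was 2.40 ± 0.43 (SE) in IUGR, with an adjusted p of 0.0163 that ranged from 3.31e-06 to 0.328 over the alternatives. In NS it was 2.40 ± 0.43, with an adjusted p of 0.0187 (3.36e-06 to 0.396).

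Sfrp1 (chr8:23411502-23449632), a soluble frizzled-like decoy, had 6.83 and 4.04 CPM in IUGR and 11.7 and 2.32 CPM in NS at week 8, against 51.6 and 35.9 CPM in IUGR and 38.8 and 47.3 CPM in NS at postnatal day 3. Every week 8 library lay below every postnatal day 3 library. The log2 fold change in edgeR was -2.90 ± 0.72 in IUGR, with an adjusted p of 0.0392 (0.000314 to 0.318 over the alternatives). In NS it was -2.61 ± 0.71, with an adjusted p of 0.0563 (0.00165 to 0.456), which missed the threshold. The NS value was -4.18 without replicate 1 of NS at week 8 and -1.86 without replicate 2. The difference between IUGR and NS in this age change, -0.30 ± 0.95, did not pass (adjusted p = 1 in edgeR). Sfrp2 (chr3:83766321-83774316), of the same family and with the GC-rich promoter shown above, had 0.744 and 1.99 CPM in IUGR and 0.844 and 1.37 CPM in NS at week 8. Its postnatal day 3 values were 5.33 and 8.98 CPM in IUGR and 5.50 and 5.77 CPM in NS, again with no overlap between ages. Its edgeR log2 fold change was -2.28 ± 0.56 in IUGR, with an adjusted p of 0.0394 (0.00158 to 0.427 over the alternatives). In NS it was -2.29 ± 0.57, with an adjusted p of 0.0437 (0.00188 to 0.444).

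Marker sums of dividing and stem-like cells were also lower at week 8. The 15 neural stem cell and radial glia markers summed to 554 and 301 CPM in IUGR and 549 and 331 CPM in NS at week 8. Those of postnatal day 3 summed to 4929 and 4551 CPM in IUGR and 5169 and 4477 CPM in NS. The 12 cycling cell markers summed to 59.3 to 97.3 CPM over the week 8 libraries, against 378 to 517.5 CPM at postnatal day 3. Of the stem cell list, Fabp7, Dcx and Sox11 held most of the postnatal day 3 sum, and Dcx and Sox11 also mark immature neurons. Without these 3 genes the other 12 summed to 375 and 235 CPM in IUGR and 348.5 and 270 CPM in NS at week 8, against 661.5 and 679 CPM in IUGR and 807 and 668 CPM in NS at postnatal day 3. Hopx went the other way, with 53.5 to 139 CPM over the week 8 libraries and 28.9 to 48.5 CPM at postnatal day 3. None of these markers was at 0 over all libraries, 7 of the 15 stem cell markers and 11 of the 12 cycling markers fell in IUGR, and their part in the Sfrp values was not tested. Of the other antagonists tested, Dkk2 had 1.15 and 0.480 CPM in IUGR and 1.46 and 0.105 CPM in NS at week 8, against 1.42 to 2.46 CPM at postnatal day 3. The ages overlapped for Dkk2, Sfrp4 and Sfrp5, and none of the 3 passed in either group.

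**Figure D2:**
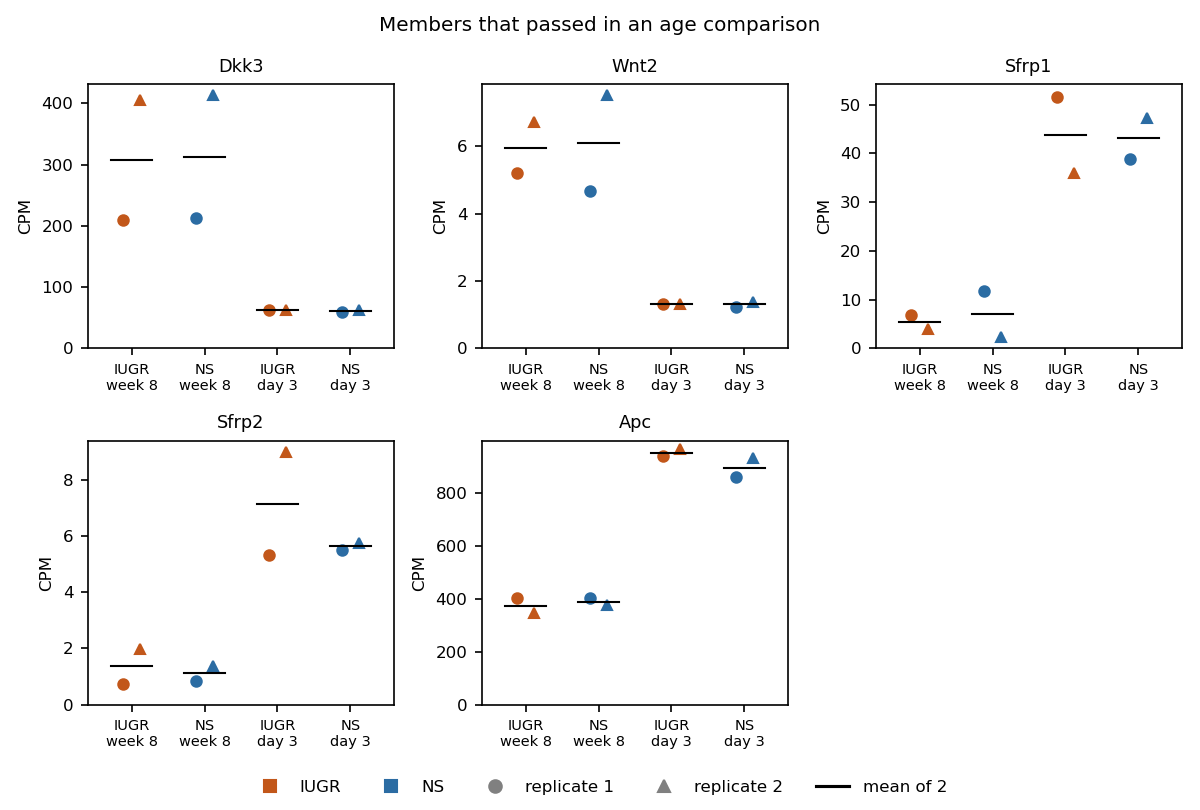
CPM of the 5 members that passed in an age comparison, in each library, with circles for replicate 1, triangles for replicate 2 and a bar for the mean of 2 libraries. For Dkk3 and Wnt2 all 4 week 8 libraries lie above all 4 postnatal day 3 libraries, and for Sfrp1, Sfrp2 and Apc all lie below.

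Of 16 tested ligands 1 rose in each age comparison and none fell, where 16.8% and 14.1% of all genes passed. Wnt2 (chr6:17988940-18030585) had 5.21 and 6.72 CPM in IUGR and 4.68 and 7.53 CPM in NS at week 8, against 1.30 and 1.32 CPM in IUGR and 1.24 and 1.37 CPM in NS at postnatal day 3. The 4 postnatal day 3 libraries were nearly alike and all below those of week 8. The edgeR log2 fold change was 2.28 ± 0.39 in IUGR, with an adjusted p of 0.0143 (2.36e-05 to 0.325 over the alternatives). In NS it was 2.25 ± 0.40, with an adjusted p of 0.0173 (3.91e-05 to 0.391). Wnt16 and Wnt10a did not overlap between ages either, with higher values at week 8. Wnt10a had 1.89 and 2.40 CPM in IUGR and 0.844 and 2.21 CPM in NS at week 8, against 0 and 2 counts in IUGR and 0 and 8 counts in NS at postnatal day 3. Its adjusted p in edgeR was 0.0555 in IUGR and 0.185 in NS. Wnt8b, which marks the cortical hem and nearby hippocampal field in the mouse embryo, had 0.609 and 0.274 CPM in IUGR and 0.230 and 0.105 CPM in NS at week 8. It had 0.680 and 0.882 CPM in IUGR and 1.10 and 0.799 CPM in NS at postnatal day 3, and neither comparison passed (adjusted p = 0.49 in IUGR and 0.0724 in NS in edgeR). The 14 markers of cortical hem and Cajal-Retzius cells summed to 121 to 339 CPM at week 8, against 638 to 861 CPM at postnatal day 3. Reln alone held 43.3 to 242 CPM at week 8 and 445 to 599 CPM at postnatal day 3. All 13 tested markers of the list had a negative log2 fold change in IUGR and in NS. The list includes the member Wnt3a, and the part of these cells in the Wnt8b values was not tested.

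In the cytoplasm, Apc fell and the other 3 genes of its role did not pass. Apc had 404 and 344 CPM in IUGR and 402 and 375 CPM in NS at week 8, against 938 and 965 CPM in IUGR and 858 and 933 CPM in NS at postnatal day 3. The ages lay far apart, with a log2 fold change of -1.24 ± 0.22 in IUGR and an adjusted p of 0.0153 in edgeR (1.08e-09 to 0.362 over the alternatives). In NS it was -1.18 ± 0.22, with an adjusted p of 0.0204 (1.22e-08 to 0.46). Ctnnb1 had 724 and 613 CPM in IUGR and 712 and 562 CPM in NS at week 8, against 1029 and 1052 CPM in IUGR and 987 and 956 CPM in NS at postnatal day 3. Its ages did not overlap, but its log2 fold changes of -0.53 ± 0.24 in IUGR and -0.58 ± 0.24 in NS did not pass in edgeR (adjusted p = 0.167 and 0.149). Axin1, the constitutive axin, showed a difference of the same sign, at -0.63 ± 0.19 in IUGR and -0.40 ± 0.19 in NS. Axin2, a feedback gene that β-catenin and TCF switch on in many tissues, had 25.9 and 16.4 CPM in IUGR and 30.4 and 23.4 CPM in NS at week 8. Axin2 had 22.1 and 28.6 CPM in IUGR and 30.3 and 27.3 CPM in NS at postnatal day 3, with overlapping ages and log2 fold changes of -0.15 ± 0.29 in IUGR and -0.07 ± 0.29 in NS.

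No receptor, TCF/LEF factor or ubiquitin ligase passed. Of the 10 frizzled genes 8 had a negative log2 fold change in IUGR and 7 in NS, with medians of -0.70 and -0.52. Fzd3 had 255 and 96.7 CPM in IUGR and 204 and 85.0 CPM in NS at week 8, against 339 and 291 CPM in IUGR and 262 and 285 CPM in NS at postnatal day 3. Its ages did not overlap, yet week 8 replicates differed by more than 2-fold in both groups. Fzd9 came nearest to the threshold, at -1.27 ± 0.36 in IUGR with an adjusted p of 0.0558 in edgeR, and -0.78 ± 0.35 in NS with 0.18. Fzd2 leaned the other way, with 7.44 and 33.1 CPM in IUGR and 12.7 and 24.7 CPM in NS at week 8, against 5.68 to 10.8 CPM at postnatal day 3. Counting both treatments, 14 of the 43 members, or 32.6%, did not overlap between the 4 week 8 and the 4 postnatal day 3 libraries, against 47.1% of all genes. Week 8 was above for Dkk3, Wnt2, Wnt10a and Wnt16, 4 members beside 21.1% of all genes. It was below for 10 members beside 26% of all genes, namely Apc, Axin1, Ctnnb1, Fzd1, Fzd3, Fzd8, Fzd9, Sfrp1, Sfrp2 and Wnt8b.

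**Figure D3:**
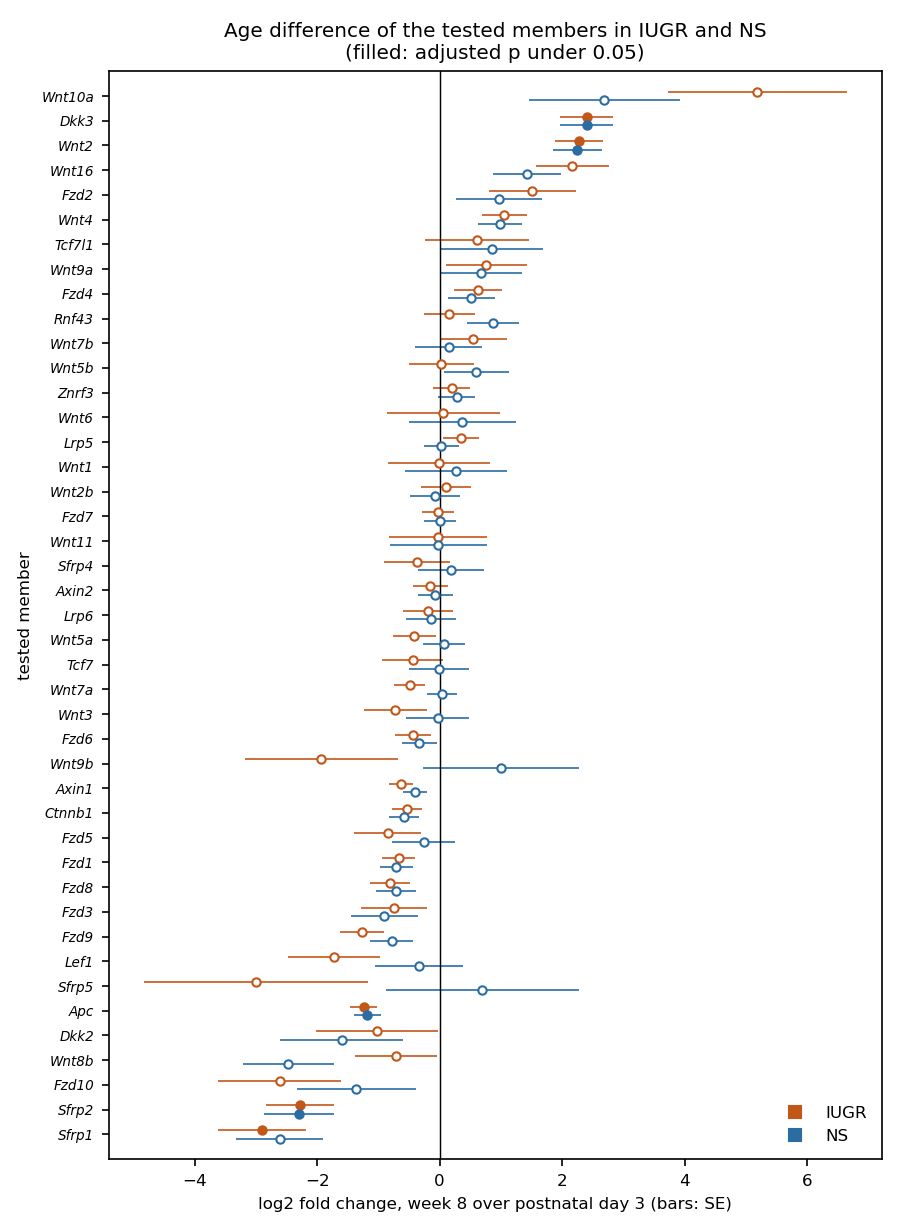
Log2 fold change of week 8 over postnatal day 3 (horizontal axis, bars are SE) for the 43 tested members in IUGR and in NS, with filled points where the edgeR adjusted p was under 0.05. Dkk3, Wnt2, Apc, Sfrp2 and, in IUGR, Sfrp1 are filled, and the open point of Wnt10a in IUGR rests on 0 and 2 counts at postnatal day 3.

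Most or all of these calls were lost when 1 library of postnatal day 3 was left out, and calls over all genes fell too. Most were also lost in IUGR without its replicate 2 library of week 8, and in NS without its own. Calls over all genes fell there as well. With 1 library left out, the log2 fold change in IUGR ran from -1.36 to -1.14 for Apc and 2.08 to 2.45 for Wnt2. It ran from 1.85 to 2.80 for Dkk3, -3.33 to -2.58 for Sfrp1 and -3.15 to -1.74 for Sfrp2. The NS ranges were -1.25 to -1.12 for Apc, 1.85 to 2.55 for Wnt2, 1.82 to 2.80 for Dkk3 and -2.72 to -2.01 for Sfrp2. Without both of the replicate 2 libraries that went against the male label, calls were lost across all genes. The log2 fold changes of Apc, Dkk3, Sfrp1, Sfrp2 and Wnt2 then kept their signs.

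The second comparison asked whether the members differed between IUGR and NS, and none passed at either age. In edgeR 0 of 43 members passed at week 8 and 0 at postnatal day 3, where 0% of all 15999 genes passed at each age. No member had an unadjusted p under 0.05 in this joint fit either, while 161 genes did at week 8 and 96 at postnatal day 3. The joint fit shares 1 estimate of the spread, although replicates differed more at week 8. Over genes, log2 differences between replicates had a standard deviation of 0.896 in IUGR and 0.998 in NS at week 8. It was 0.355 and 0.337 at postnatal day 3. With edgeR on postnatal day 3 alone, 839 genes and 2 of 39 members had an unadjusted p under 0.05. On week 8 alone 29 genes and 0 of 41 members did, and no member passed at either age. DESeq2 and limma voom on all libraries also called no member, where DESeq2 called 0.00625% of genes at week 8 and 0% at postnatal day 3. DESeq2 on each age alone called no member either, with 0.0066% of genes at week 8 and 0.421%, or 65 genes, at postnatal day 3. The difference between the IUGR effects at both ages passed for 0 members and 0% of genes, again with no member at an unadjusted p under 0.05, against 82 genes. Median log2 fold changes of the members were -0.27 at week 8, against 0.02 over all genes, and -0.03 at postnatal day 3, against 0.01. At week 8, 29 of the 43 values were negative, beside 7536 of all 15999 genes, and at postnatal day 3, 23 were, beside 7678. The sign of 28 members at week 8 and of 19 at postnatal day 3 changed under at least 1 alternative.

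Since none passed, the values themselves are described. At week 8 both IUGR libraries lay outside the NS range for 13 members, or 30.2%, against 13.1% of all genes. Of these 12 were lower in IUGR, or 27.9%, against 9.01% of all genes, and Wnt8b was higher, beside 4.08% of all genes. The week 8 counts of Wnt8b were 9 and 4 in IUGR and 3 and 2 in NS, near the floor. With TMM-scaled CPM in place of CPM the lower members numbered 8, with 6.48% of all genes. Of the postnatal day 3 values 16 members did not overlap, or 37.2%, against 36.3% of all genes. IUGR was higher for 8 of them, with 19.7% of all genes, and lower for 8, with 16.6%. With upper-quartile scaling the higher members at postnatal day 3 numbered 4, with 15.4% of all genes, and the lower members 9, with 20.1%.

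The receptors Fzd5, Fzd6, Fzd7 and Lrp5 and the ligand Wnt16 were lower in IUGR without overlap at both ages, which share no library. These 5 are 11.6% of the tested members, beside 2.09% of all genes (334 genes) with that pattern. Fzd5, a receptor best known from the eye and gut, had 1.89 and 0.754 CPM in IUGR and 3.91 and 2.32 CPM in NS at week 8. It had 2.49 and 2.65 CPM in IUGR and 3.16 and 4.40 CPM in NS at postnatal day 3. IUGR was thus low at each age, by -1.15 ± 0.55 and -0.56 ± 0.52 on the log2 scale, and neither passed in edgeR (adjusted p = 1 at both ages, 0.653 to 1 over the alternatives at week 8). With 1 library left out the week 8 value ran from -1.96 (without replicate 1 of IUGR) to -0.63 (without replicate 2 of IUGR). The postnatal day 3 value ran from -0.79 (without replicate 1 of NS) to -0.30 (without replicate 2 of NS).

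Fzd6, a receptor of planar cell polarity, had 5.82 and 4.59 CPM in IUGR and 8.83 and 6.37 CPM in NS at week 8. Its values were 7.71 and 7.33 CPM in IUGR and 9.90 and 9.53 CPM in NS at postnatal day 3. The week 8 groups of Fzd6 overlapped with upper-quartile scaling. Fzd7, a receptor of stem and progenitor cells, had 9.26 and 9.67 CPM in IUGR and 15.1 and 13 CPM in NS at week 8. Fzd7 had 11.1 and 9.65 CPM in IUGR and 16.4 and 11.99 CPM in NS at postnatal day 3. Its log2 differences of -0.49 ± 0.26 and -0.45 ± 0.26 were the most alike at the 2 ages among the 5 genes and did not pass.

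Lrp5, the co-receptor that works with Fzd4 and norrin in vessels of the mouse retina, had 8.05 and 11.4 CPM in IUGR and 12.5 and 12.6 CPM in NS at week 8. Lrp5 had 9.41 and 7.05 CPM in IUGR and 11.8 and 13.2 CPM in NS at postnatal day 3, again without overlap. Its log2 differences were -0.29 ± 0.29 at week 8 and -0.60 ± 0.29 at postnatal day 3. The related Lrp6 overlapped at both ages, at -0.07 ± 0.41 and -0.01 ± 0.41. So did Fzd4, at -0.14 ± 0.39 at week 8 and -0.25 ± 0.39 at postnatal day 3. Wnt16 had 1.01 and 1.37 CPM in IUGR and 1.84 and 1.895 CPM in NS at week 8, against 0.283 and 0.276 CPM in IUGR and 0.963 and 0.457 CPM in NS at postnatal day 3.

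Vessel and meningeal markers also leaned lower in IUGR at both ages, although the meningeal sums overlapped at week 8. The 18 endothelial and mural markers summed to 255 and 304 CPM in IUGR and 440.5 and 396.5 CPM in NS at week 8. The same markers summed to 206 and 200.2 CPM in IUGR and 285 and 265 CPM in NS at postnatal day 3, so IUGR was below NS at each age without overlap. The 18 markers of meninges and fibroblasts summed to 1355 and 843 CPM in IUGR and 2860 and 705 CPM in NS at week 8, and to 686 and 754 CPM in IUGR and 1637 and 1392 CPM in NS at postnatal day 3. At week 8 the meningeal sums overlapped, with replicate 2 of NS the lowest. The single marker Ptgds held 901 and 565 CPM in IUGR and 1852 and 410 CPM in NS at week 8. All 18 meningeal markers had a negative log2 difference at each age, with medians of -0.92 at week 8 and -0.89 at postnatal day 3. Of the vessel markers 15 were negative at week 8 and 16 at postnatal day 3. All markers of both lists had counts, none passed between IUGR and NS in edgeR, and their part in the receptor values was not tested.

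**Figure D4:**
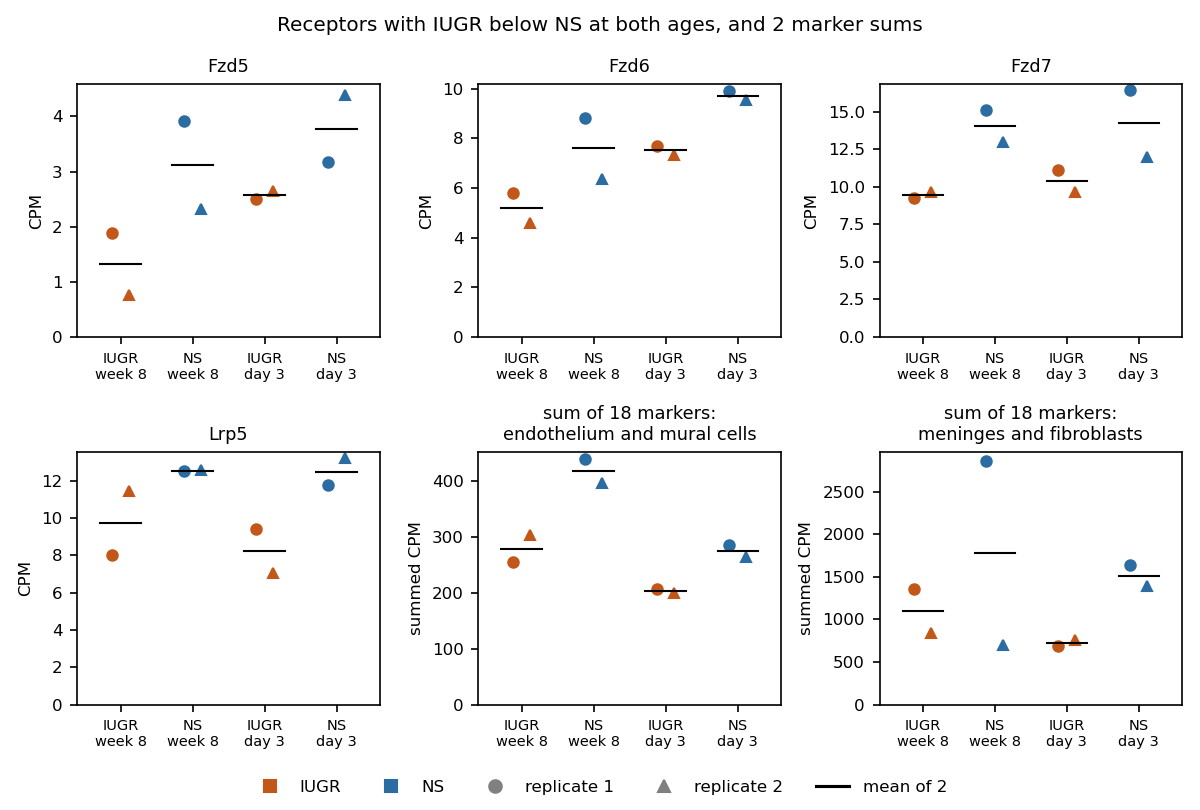
CPM of Fzd5, Fzd6, Fzd7 and Lrp5 and the summed CPM of 18 endothelial and mural and 18 meningeal markers in each library (circles replicate 1, triangles replicate 2, bars the mean of 2). IUGR points lie below NS points at each age in the 4 receptor panels and the endothelial panel, and they overlap at week 8 in the meningeal panel.

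In CPM, further members did not overlap at week 8, at postnatal day 3 or, for Wnt7a, at both with opposite signs. Rnf43, a ligase that clears frizzled receptors, had 1.62 and 2.19 CPM in IUGR and 4.45 and 2.69 CPM in NS at week 8, a log2 difference of -0.82 ± 0.42. All 4 libraries of postnatal day 3 held 1.76 to 2.06 CPM. Tcf7 had 0.879 and 0.754 CPM in IUGR and 1.07 and 1.58 CPM in NS at week 8. Lef1, the TCF/LEF factor needed for dentate granule neurons in mice, had 2.23 and 1.03 CPM in IUGR and 2.46 and 3.21 CPM in NS at week 8, with IUGR low and a log2 difference of -0.72 ± 0.74. Among the postnatal day 3 values, Axin1 had 39.8 and 41.7 CPM in IUGR and 35.1 and 36.4 CPM in NS, a difference of 0.19 ± 0.19 on the log2 scale. Ctnnb1 differed by 0.10 ± 0.24 and Fzd3 by 0.20 ± 0.54. Wnt7a, the second ligand by level, had 19.3 and 16.9 CPM in IUGR and 14.6 and 16.6 CPM in NS, a difference of 0.21 ± 0.25. At week 8 it had 13.7 and 10.3 CPM in IUGR and 14.4 and 17.01 CPM in NS, a difference of -0.32 ± 0.25. The Wnt7a groups overlapped at week 8 with TMM-scaled CPM. With upper-quartile scaling those of Wnt7a and of Fzd3 overlapped at postnatal day 3. Tcf7l1 at postnatal day 3 had 1.13 and 0.882 CPM in IUGR and 1.51 and 1.256 CPM in NS, a difference of -0.45 ± 0.85. None of these passed.

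One postnatal day 3 library, replicate 2 of IUGR, set several values of its group. In it 4 of the 38 members with a mean of at least 1 CPM were at least 2-fold above the other 3 libraries of that age, as were 0.205% of 14637 genes. Lef1 had 2.098 and 9.59 CPM in IUGR and 3.51 and 3.77 CPM in NS. Wnt9b had 0.170 and 4.63 CPM in IUGR and 0.550 and 0.400 CPM in NS. Its neighbour Wnt3, on the other strand of chromosome 11 with 24328 bases between the genes, had 3.12 and 7.44 CPM in IUGR and 2.96 and 2.57 CPM in NS. Fzd10 had 1.02 and 8.93 CPM in IUGR and 2.68 and 2.34 CPM in NS. For Lef1, Wnt9b and Fzd10 replicate 1 of IUGR was the lowest of the 4 libraries, so the groups overlapped. For Wnt3 the groups did not overlap, and its log2 difference of 0.93 ± 0.51 in edgeR did not pass and was 0.18 without replicate 2 of IUGR.

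The same library was high in many markers of the thalamus and habenula, which adjoin the hippocampus. Their 18 genes summed to 589 and 1016 CPM in IUGR and 597.5 and 601 CPM in NS at postnatal day 3. Tcf7l2, a TCF factor of thalamic neurons that is no member, had 6.41 and 95.4 CPM in IUGR and 35.4 and 16.7 CPM in NS. Gbx2, a thalamic homeobox gene, had 0.170 and 7.88 CPM in IUGR and 2.41 and 1.43 CPM in NS, while Pou4f1, a habenular gene, was at 0 in the library that stood apart. Of the 18 genes 12 were highest in this library, 7 of them by at least 2-fold, and Prkcd, Rorb, Plekhg1, Pou4f1, Tac2 and Nwd2 were not. The part of these cells in the 4 members' values was not tested. This was also 1 of the 2 libraries with Xist, while the other, replicate 2 of NS, was not high for any of the 4 members.

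**Figure D5:**
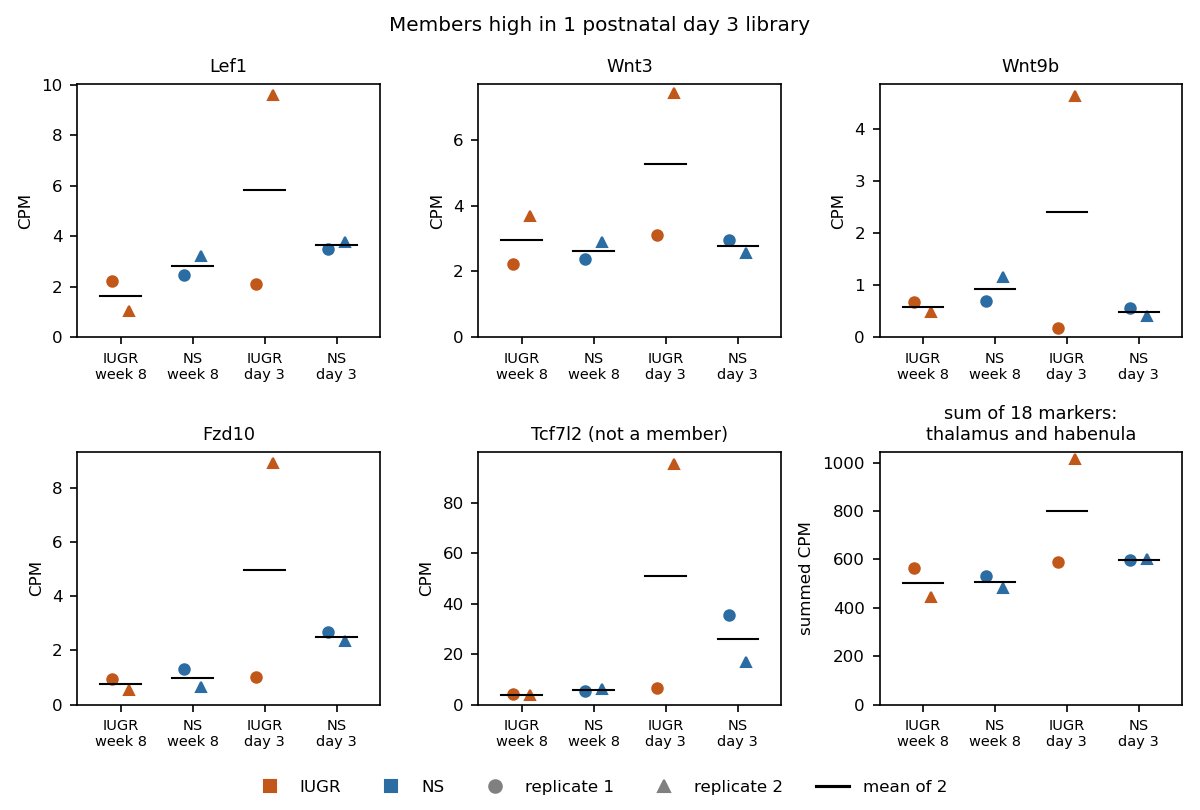
CPM of Lef1, Wnt3, Wnt9b and Fzd10, of Tcf7l2 and the summed CPM of 18 thalamus and habenula markers in each library (circles replicate 1, triangles replicate 2, bars the mean of 2). The triangle of IUGR at postnatal day 3 is the highest point in every panel.

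At week 8, Wnt6 was the single member at least 2-fold above the rest of its age in 1 library. Wnt6 had 1.83 and 0.548 CPM in IUGR and 5.83 and 1.00 CPM in NS, with replicate 1 of NS high. That library also held the largest sum of 15 choroid plexus markers, at 8926 CPM, against 237 to 374 CPM in the other week 8 libraries. At postnatal day 3, where Wnt6 had 1.02 and 1.43 CPM in IUGR and 3.10 and 2.23 CPM in NS, the choroid plexus sums were 3481 and 534 CPM in IUGR and 167 and 6676 CPM in NS. Across the same libraries the meningeal sums given above were highest in replicate 1 of NS at each age, as was Wnt6. The part of either cell type in the Wnt6 values was not tested.

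Further genes of the pathway were counted in the same edgeR fit, from lists grouped by role. The list of reported β-catenin targets also holds the members Dkk1, Axin2, Lef1, Tcf7, Rnf43 and Znrf3. It repeats some genes of the other lists as well. In neither IUGR comparison nor in the difference between them did any gene of the 8 lists pass. Between ages, 5 planar polarity genes rose and 2 fell of 14 tested in both IUGR and NS, where 16.8% and 14.1% of all genes passed in either direction. Prickle2, a cytoplasmic planar polarity protein, had 248 and 373 CPM in IUGR and 252 and 322 CPM in NS at week 8, against 114 and 105 CPM in IUGR and 96.4 and 129 CPM in NS at postnatal day 3. Vangl2, a membrane protein of the same system, went the other way, with 4.67 and 7.34 CPM in IUGR and 4.45 and 8.11 CPM in NS at week 8, against 21.3 and 26.7 CPM in IUGR and 20.3 and 21.9 CPM in NS at postnatal day 3. Prickle1, Fuz, Dact2 and Dact3 rose, and Dact1 fell. Dact1 had 6.97 and 4.52 CPM in IUGR and 9.90 and 5.63 CPM in NS at week 8, against 52.6 to 63.8 CPM over the postnatal day 3 libraries.

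Of 11 other antagonists tested, 18.2% passed in IUGR and 9.09% in NS, beside 16.8% and 14.1% of all genes. Among them Draxin, a repulsive axon guidance protein that also inhibits Wnt signalling, fell in both groups. Draxin had 1.15 and 2.47 CPM in IUGR and 2.15 and 1.53 CPM in NS at week 8, against 41.8 and 44.3 CPM in IUGR and 42.4 and 45.4 CPM in NS at postnatal day 3. Its log2 fold change was -4.46 ± 0.40 in IUGR and -4.56 ± 0.41 in NS, with adjusted p of 0.00315 and 0.00338 in edgeR, and it exceeded that of every tested member called. Kremen1, a co-receptor for Dickkopf proteins, rose in IUGR by 1.06 ± 0.27. Of 25 cytoplasmic transducers 1 rose and 3 fell in IUGR, and 1 rose and 2 fell in NS. Among them, Amer1, a partner of APC, fell by 2.89 in IUGR and 2.43 in NS on the log2 scale, with 7.54 to 16 CPM at week 8, against 64.8 to 83.1 CPM at postnatal day 3. Daam2, a formin that binds Dishevelled, rose by 2.65 ± 0.51 in IUGR and 2.83 ± 0.52 in NS. Daam1 fell in both groups, and Cxxc4, a Dishevelled inhibitor, fell in IUGR.

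Single genes changed in most of the other lists, where 16.8% of all genes passed in IUGR and 14.1% in NS. Adgra2, which serves Wnt7 signalling in brain vessels, fell among 10 tested agonists and amplifiers, with 19 to 23.3 CPM at week 8, against 38.6 to 50.1 CPM at postnatal day 3. The receptor Ptk7 fell among 6, and Ctnnbip1, an inhibitor of the β-catenin and TCF contact, fell among 15 nuclear factors. None of 6 secretion genes passed. Of 26 tested genes reported as β-catenin targets, Ephb2 fell in IUGR and Sp5 fell in NS, and no target rose. Sp5 was near the floor at week 8, at 0.105 to 0.27 CPM, against 0.827 to 1.51 CPM at postnatal day 3. With 1 call in each group, 3.85% of the targets passed, a lower share than the 16.8% of all genes in IUGR and 14.1% in NS. The median log2 fold change of these targets, tested members included, was -0.24 in IUGR and -0.16 in NS between ages. Over all genes it was 0.02 and 0.04.

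Some members differed widely between replicates. Of 38 members with a mean of at least 1 CPM, 6 differed at least 2-fold between replicates in IUGR and 8 in NS at week 8, or 15.8% and 21.1%, where 22.8% and 28.2% of genes did. At postnatal day 3 these counts were 4 in IUGR (10.5%), the 4 members described above, and 0 in NS, where 2.17% and 1.61% of genes did. At week 8 replicate 2 was high for Tcf7l1 and low for Fzd3 and Wnt6 by at least 2-fold in both groups. Tcf7l1, a factor that represses target genes in the absence of β-catenin, had 0.473 and 2.40 CPM in IUGR and 1.23 and 3.63 CPM in NS at week 8.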

How the data were processed

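The deposited files hold raw counts of reads per gene, which the authors made from ribosome-depleted, randomly primed paired-end libraries, per the labels' protocols. Tools listed in the submitters' processing notes are HISAT2 2.1.0, featureCounts 1.6.1, SAMtools 1.9, cutadapt 1.16 and DESeq2 1.26.0, with build mm10. Whether counting used the strand is not stated there, so reads from genes on opposite strands, such as Sfrp2 and Gm26771, cannot be told apart. The authors' normalized tables hold a signal, the count divided by a size factor per library, and were only checked.

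Members and gene lists were chosen with earlier results of these data known. The 8 libraries entered 1 model with a mean for each of the 4 groups in edgeR 4.0.16 (R 4.3.3, quasi-likelihood F test, TMM factors 0.95 to 1.031, default expression filter, Benjamini-Hochberg over 15999 genes, adjusted p under 0.05, common coefficient of variation 0.374), and the code was tested on simulated data. SE is the log2 fold change divided by the square root of F. CPM is the count over the library total, and lengths are those deposited. Alternatives used DESeq2 1.42.0, limma voom 3.58.1, other scalings and filters, replicate blocks, each age alone and libraries left out. Values are given in full for members that passed, for the highest member of each role, and for up to 5 higher and 5 lower members without overlap between IUGR and NS at each age with a mean of at least 1 CPM; other members named were chosen after their values were seen. Positions are those of GENCODE M21 on GRCm38.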

Additional observations from a re-analysis of the deposited data

How the results depend on the processing

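In both IUGR comparisons and their difference, 0 members passed under every alternative that was run. In the age comparisons the log2 fold changes of Apc, Dkk3, Sfrp1, Sfrp2 and Wnt2 kept their signs, while 16 of 43 members in IUGR and 21 in NS changed sign under at least 1 alternative. The number that passed moved. With DESeq2 it was 11 in IUGR, beside 28.6% of all genes, against 5 in edgeR, and 6 in NS, beside 25.7%, against 4. Leaving out 1 library at a time gave 0 to 8 in IUGR and 0 to 5 in NS. Without IUGR replicate 2 of week 8 the count in IUGR was 1, without NS replicate 1 of week 8 it was 8, and without NS replicate 2 of week 8 the count in NS was 1. Without both replicate 2 libraries of postnatal day 3 it was 0 in each, and without both of week 8 it was 11 in IUGR and 9 in NS. Without replicate 2 of IUGR at postnatal day 3 and replicate 1 of NS at week 8 together, chosen after seeing the data, it was 1 in each. Wherever leaving out libraries raised or lowered the number of members that passed, the share of all genes that passed moved the same way. These moves were therefore not particular to the members. The causes of these moves were not tested. A smaller share of members than of all genes passed whenever 1 week 8 library alone was left out. The same held in IUGR and in NS without both replicate 2 libraries of week 8. Without the pair of libraries chosen after seeing the data, the share of members was above that of all genes in IUGR and below it in NS. Where 1 library remained in a group, its spread was taken from the other groups.

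With the replicate number as a block, 7 members passed in IUGR and 5 in NS, beside 21.9% and 18.8% of all genes. With a replicate block for each number within each age, 10 and 7 passed, beside 34.7% and 31.6%. The labels do not say that a number marks a shared animal, litter or day. Differences between replicates correlated across genes at 0.858 between IUGR and NS at week 8 and at -0.076 at postnatal day 3, with 2 pairs at each age, and the numbers were not treated as pairs. Within both numbers at week 8, a comparison chosen after seeing the data, IUGR was below NS for 24 members, or 55.8%, beside 30.5% of all genes, against 12 without overlap. With TMM-scaled CPM these were 18 members and 21.8% of genes. A replicate block on week 8 alone called 0 members in edgeR, with 2 at an unadjusted p under 0.05. At 2 libraries per group, members near the floor, such as Wnt10a and Sfrp5, carry standard errors above 1 on the log2 scale.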

Other observations

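Among the Wnt genes, 4 pairs lie within 100000 bases of each other, and whether the levels of a pair move together was not tested. Wnt6 and Wnt10a are 6193 bases apart on chromosome 1. Wnt10a had counts of 11 to 42 in the week 8 libraries and 0 to 8 at postnatal day 3, while Wnt6 overlapped between ages. Wnt10b and Wnt1 are 11706 bases apart on chromosome 15 and were both under 1 CPM in every library. Wnt3a and Wnt9a are 16175 bases apart on chromosome 11. Wnt9a had 9.20 and 3.09 CPM in IUGR and 3.38 and 7.63 CPM in NS at week 8, against 2.61 to 5.18 CPM at postnatal day 3, while Wnt3a had 1 count in all at week 8. The fourth pair is Wnt9b and Wnt3, both high in replicate 2 of IUGR at postnatal day 3.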
